A study of Rattus norvegicus with 12 samples.

Results

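The genes described here build and regulate the actin cytoskeleton, or are integrins, in CC531 cells, a rat colon carcinoma cell line. Members were chosen by gene symbol from the array annotation: the actins, Arp2/3 subunits, alpha-actinins, tropomyosins, calponins, myosin heavy and light chains, unconventional myosins, the GTPases Rhoa, Rhob, Rac1 and Cdc42, both chains of the integrins and a short list of single genes such as Pfn1, Cttn, Ezr and Msn. The rule itself used no measured value, but it was chosen with earlier results of these data known. It found 64 genes of the 4736 named by the array, measured by 106 of 8740 probe sets that were not controls. After removal of dim probe sets, 79 member probe sets of 55 genes were tested, 27 were not, and 9 genes had no tested probe set. A further 17 probe sets named several genes, a member among them, and were not counted, which left Cfl1, Tmsb10 and Myh9 without a value. Gsn and Vcl, also named by the rule, were not analysed here.

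Total RNA from untreated cells (2 arrays, at 2 and 24 h), from cells given 4.5 mM butyrate (5 arrays, at 2, 6, 12, 16 and 24 h) and from cells given 3 mM aspirin (5 arrays, at the same hours) was hybridised to 12 arrays. There was 1 array per treatment and hour, so the hours of a treatment stood as its replicates. The labels do not say whether the arrays came from separate cultures, and p-values then measure only the spread between these arrays. All cells belong to a single established line, and the untreated group holds no array at 6, 12 or 16 h.

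Actin monomers join into filaments, a step that profilin feeds with monomers and that the Arp2/3 complex starts as branches on the side of an older filament. Tropomyosins lie along the filament and set which proteins may bind it, while myosins pull on it and alpha-actinin ties filaments together. GTPases such as Rac1 and Cdc42 switch these machines on and off, and integrins, pairs of an alpha and a beta chain, fasten the filaments through the membrane to the extracellular matrix. In the colon, butyrate is a product of bacterial fermentation and an inhibitor of histone deacetylases, and aspirin is an inhibitor of cyclooxygenases.

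Values are array intensities on a linear scale, and changes and slopes are differences of log2 intensity after values under a floor of 90.91 had been raised to it. Between 11.4 and 24.1% of the tested member values on an array lay at that floor. "At least" marks a change whose lower group had an array at the floor and whose higher group had none. A call is an adjusted p under 0.05 in limma over all 6118 probe sets tested. Markers of the labelled tissue were measured first, and 7 of 8 epithelial markers on the array (Krt8, Krt18, Krt19, Cdh17, Epcam, Cldn3 and Cldn7) lay above the floor on all 12 arrays. The epithelial intensities summed to 64022.5 to 80476.3 without treatment, 58704.4 to 70812.9 with butyrate and 65783.4 to 77293 with aspirin.

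With butyrate, Rhob had the largest change of the members tested. Against the untreated arrays, 7 of 79 member probe sets (8.86%) of 5 genes were called, beside 11.7% of all probe sets tested. Rhob was the 1 that rose (1.27%, beside 7.78% of all), and 3 probe sets of Tpm1 and 1 each of Pfn1, Actb and Myl12a fell (6 in all, 7.59%, beside 3.92%). The median change of the members was -0.05, beside 0.0009 over all probe sets tested. With aspirin no member was called by limma (0 of 79, beside 0.147% of all probe sets tested), while 13 members, or 16.5%, had an unadjusted p under 0.05, beside 10.7% of all. Butyrate and aspirin differed from each other in 23 member probe sets (29.1%) of 22 genes, beside 25.2% of all.

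The plot of changes by role gives all 79 tested probe sets in the 3 comparisons.

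**Figure D1:**
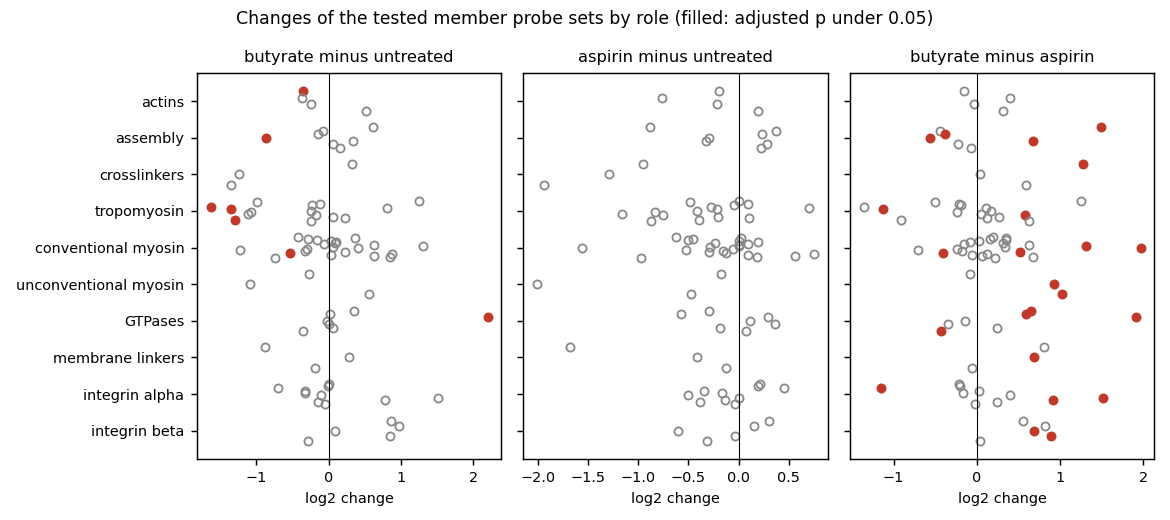
Each point is 1 tested member probe set, placed by its log2 change (horizontal axis) and its role (rows), for butyrate minus untreated, aspirin minus untreated and butyrate minus aspirin; filled points have an adjusted p under 0.05. Rhob stands alone at the right of the first panel with a change of 2.20, no point is filled in the second panel, and 23 are filled in the third.

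Promoters are shown first for 4 genes described below: Rhob, called higher with butyrate, Pfn1 and Tpm1, called lower, and Cnn1. Cnn1 had a called slope in butyrate but no call against the untreated arrays (1.25, adjusted p = 0.151). It passed the removal of dim probe sets through the butyrate arrays alone. They are the 250 bases before the annotated start, from RefSeq's rat assembly GRCr8, 5′ to 3′ on the gene's own strand. Capitals mark the letters CCAAT and GGGCGG on either strand, so that their complements stand as ATTGG and CCGCCC.

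Rhob (chr6:37085205-37085454, minus strand): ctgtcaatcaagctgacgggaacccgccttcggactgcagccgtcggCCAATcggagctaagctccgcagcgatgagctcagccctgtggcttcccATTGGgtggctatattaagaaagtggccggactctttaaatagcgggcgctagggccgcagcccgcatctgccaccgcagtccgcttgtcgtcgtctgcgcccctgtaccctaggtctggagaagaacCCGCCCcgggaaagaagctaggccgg
Cnn1 (chr8:28908187-28908436, plus strand): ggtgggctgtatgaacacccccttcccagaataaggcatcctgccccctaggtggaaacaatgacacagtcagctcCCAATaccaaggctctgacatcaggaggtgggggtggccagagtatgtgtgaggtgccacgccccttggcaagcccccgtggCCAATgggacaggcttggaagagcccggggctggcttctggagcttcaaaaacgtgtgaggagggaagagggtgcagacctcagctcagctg
Pfn1 (chr10:55866588-55866837, minus strand): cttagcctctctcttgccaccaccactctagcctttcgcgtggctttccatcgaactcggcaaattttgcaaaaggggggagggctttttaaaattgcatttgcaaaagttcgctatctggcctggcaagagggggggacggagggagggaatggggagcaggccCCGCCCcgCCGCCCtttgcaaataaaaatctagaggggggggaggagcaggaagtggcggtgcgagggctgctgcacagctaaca
Tpm1 (chr8:76543416-76543665, minus strand): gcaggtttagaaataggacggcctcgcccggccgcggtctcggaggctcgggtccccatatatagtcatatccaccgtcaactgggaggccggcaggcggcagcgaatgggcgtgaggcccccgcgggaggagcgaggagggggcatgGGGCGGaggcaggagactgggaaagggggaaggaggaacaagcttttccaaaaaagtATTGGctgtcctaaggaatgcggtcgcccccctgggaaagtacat

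The Rhob promoter held 2 CCAAT and 1 GGGCGG, that of Cnn1 2 CCAAT, that of Pfn1 2 GGGCGG and that of Tpm1 1 of each. RefSeq promoters were matched for 51 of the 64 member genes, 56 promoters in all. CCAAT lay in 17 of the 56 (30.4%), beside 34.0% of 33465 rat promoters of the same length. GGGCGG lay in 27 (48.2%), beside 30.5%, and TATAAA in 8 (14.3%), beside 12.9%. The CArG box, the motif named for serum response factor, lay in 4 member promoters (7.14%), those of Actg1, Myh4, Myl3 and Myo1e, beside 1.5% of all promoters. All 4 motifs were searched on both strands, and none was found to overlap another in the 4 promoters printed. These are matches of letters, not measured binding.

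Among the GTPases, the switches of the filament system, Rhob is known for a gene that responds quickly to outside signals. Rhob read 1259 and 1208 in the untreated arrays at 2 and 24 h. With butyrate it read 4141, 4443, 5650, 6954 and 8091 at 2, 6, 12, 16 and 24 h. With aspirin it read 1734, 1404, 1338, 1605 and 1497. All 5 butyrate arrays lay above all other arrays, and the 2 h array alone was already 1.75 above the untreated mean on the log2 scale.

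Rhob rose with butyrate by 2.20 ± 0.24 (SE, 5 against 2 arrays) on the log2 scale, or 4.6-fold, with an adjusted p of 0.000305. Against aspirin it was higher by 1.91 ± 0.18 (adjusted p = 0.00517). It also rose with time in butyrate, by 0.27 ± 0.06 per doubling of the hours (adjusted p = 0.0288). The call against the untreated arrays was made under 20 of 21 alternatives and ended only in the fit of the 2 and 24 h arrays alone, where the change was 2.23 (adjusted p 6.48e-05 to 0.51 over the alternatives). The call against aspirin was made under all 18. That of the slope ended without the butyrate array of 2, 16 or 24 h, where the slopes were 0.44, 0.26 and 0.23. In these bulk RNA samples, a change in every cell and a change in a share of the cells cannot be told apart.

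Rhoa, which drives stress fibres, read 2788 and 3826 untreated, 4718, 3788, 3141, 4423 and 5096 with butyrate and 1977, 2880, 3139, 2587 and 2869 with aspirin. The 5 butyrate arrays were all above the aspirin array of their hour, though only by a few units at 12 h, and overlapped the untreated pair. Rhoa was higher with butyrate than with aspirin by 0.65 ± 0.19 (adjusted p = 0.0496), a call made under 2 of 18 alternatives (adjusted p 0.018 to 0.213). It ended without any 1 array, with changes of 0.50 without either 2 h array to 0.81 without either 12 h array. The changes against the untreated arrays were 0.35 (butyrate, adjusted p = 0.337) and -0.30 (aspirin, adjusted p = 0.695).

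Rac1, the GTPase of sheet-like protrusions, was likewise higher with butyrate than with aspirin, by 0.60 ± 0.16 (adjusted p = 0.0426). It read 5195, 3536, 3807, 3959 and 4581 with butyrate and 3506, 2944, 3137, 2582 and 1923 with aspirin. Untreated cells read 5453 at 2 h and 3084 at 24 h, so all 5 butyrate arrays and 2 of the aspirin arrays lay between them. The call was made under 3 of 18 alternatives (adjusted p 0.0264 to 0.25) and ended without any 1 array, with changes of 0.43 without either 24 h array to 0.68 without either 6 h array. Cdc42, which starts thin protrusions and sets cell polarity, had 4 tested probe sets. One of them, rc_AI227887_g_at, was lower with butyrate than with aspirin, by 0.43 ± 0.09 (adjusted p = 0.0238, made under 9 of 18 alternatives). It read 8117, 7621, 5965, 7308 and 7271 with butyrate and 9797, 8557, 9242, 10418 and 10944 with aspirin, with no overlap. The other 3 Cdc42 probe sets had changes of -0.35, -0.14 and 0.24, none called, so they did not share 1 direction. The call on rc_AI227887_g_at ended without either array of 12, 16 or 24 h, where the change was -0.39, -0.42 and -0.40.

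Among the actins, Actb, the main actin of cells that are not muscle, was lower with butyrate by a small amount that exceeded the spread. It read 31974 and 31903 untreated, 25994, 25756, 24228, 25040 and 24493 with butyrate, and 25964, 27610, 27908, 27773 and 30714 with aspirin. The butyrate arrays all lay below the untreated pair, and so did the aspirin arrays, of which that of 24 h came nearest to it. Actb fell with butyrate by 0.35 ± 0.09 (adjusted p = 0.0292), or 1.27-fold. With aspirin the change was -0.19 (adjusted p = 0.485).

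The Actb call was made under 13 of 21 alternatives (adjusted p 0.0136 to 0.549). It ended without either untreated array or without the butyrate array of 12 or 16 h, with changes of -0.35, -0.35, -0.34 and -0.35, and under quantile normalization the change was -0.16. The Actg1 probe set, marked in the array design as matching a family of sequences, read 29373 and 27667 untreated and 26158, 24236, 21789, 23780 and 24769 with butyrate. Its change was -0.24 (adjusted p = 0.215), and with aspirin -0.21 (adjusted p = 0.56). Actb and Actg1 are near-identical genes, so probe sets of the one may take signal from the other. Acta2, the smooth muscle actin, had 2 tested probe sets with butyrate changes of 0.52 and -0.36, neither called.

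Pfn1 encodes profilin, which hands actin monomers to growing filament ends. It read 23494 and 21691 untreated. With butyrate it read 19597, 15488, 10164, 10252 and 9306, and with aspirin 19345, 22096, 18326, 18471 and 14438. All butyrate arrays lay below the untreated pair, and from 12 h on they lay below every aspirin array.

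Pfn1 fell with butyrate by 0.86 ± 0.25 (adjusted p = 0.0407), or 1.82-fold, and it fell with time by 0.32 ± 0.06 per doubling of the hours (adjusted p = 0.0133). Against aspirin it was lower by 0.57 ± 0.14 (adjusted p = 0.0329). The slope was called under 15 of 17 alternatives and ended without the butyrate array of 2 or 24 h, with slopes of -0.37 and -0.34. The call against the untreated arrays was made under 6 of 21 (adjusted p 0.00147 to 0.535) and ended without any 1 array but those of butyrate at 2 and 6 h. The change then ran from -0.92 without the untreated 24 h array to -0.76 without the butyrate 24 h array. The call against aspirin was made under 5 of 18 alternatives (adjusted p 0.00275 to 0.117) and ended without either array of 6, 12, 16 or 24 h, with changes of -0.58, -0.49, -0.49 and -0.55.

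Among the other proteins of filament assembly, Cttn, which binds Arp2/3 branches, was the member with the smallest adjusted p between the drugs. It read 1301, 1390, 1467, 2238 and 2017 with butyrate, and 423, 423, 526, 841 and 866 with aspirin. The groups were fully apart. Untreated cells read 1760 at 2 h, among the butyrate values, and 661 at 24 h, among the aspirin values. Cttn was higher with butyrate than with aspirin by 1.49 ± 0.13 (adjusted p = 0.00466), or 2.81-fold, and the call was made under all 18 alternatives.

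Subunits of the Arp2/3 complex went both ways between the drugs. Arpc4 was higher with butyrate than with aspirin by 0.67 ± 0.13 (adjusted p = 0.0205), with 5615, 6084, 5762, 5834 and 6140 against 4636, 3143, 2944, 4477 and 3600. Arpc1b (AF083269_g_at) was lower by 0.38 ± 0.09 (adjusted p = 0.0264), with 8553, 9209, 9464, 9405 and 8947 against 10211, 11089, 12480, 11528 and 14567. Neither pair of groups overlapped. The calls were made under 6 and 7 of 18 alternatives. Arpc4 was lost without either array of 6, 12, 16 or 24 h (changes 0.60, 0.60, 0.74 and 0.65), and Arpc1b without either array of 6, 12 or 16 h (changes -0.41, -0.38 and -0.41). The second Arpc1b probe set had a change of -0.44 (adjusted p = 0.0844), and Capg, which caps filament ends, was called in no comparison.

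Tropomyosins gave the largest fall with butyrate. Tpm1 had 5 tested probe sets, which in the array design may take up different transcripts of the gene. M60666_s_at read 12688 and 17351 untreated and 13030, 4049, 3892, 4977 and 6483 with butyrate, so the 2 h array lay with the untreated pair and the other 4 lay far below. The same probe set read 14075, 17232, 13842, 10402 and 9619 with aspirin. M15474cds_s_at read 7699 and 14163 untreated and 8064, 2447, 1868, 2778 and 4266 with butyrate. On both, the lowest array was that of 12 h and the 24 h array was again higher, without reaching the untreated pair.

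With butyrate Tpm1 fell by 1.63 ± 0.44 on M15474cds_s_at (adjusted p = 0.0315), by 1.35 ± 0.38 on M60666_s_at (adjusted p = 0.0362) and by 1.30 ± 0.34 on rc_AI144767_s_at (adjusted p = 0.0286), or 3.10-, 2.55- and 2.46-fold. On rc_AI144767_s_at all 5 butyrate arrays (764, 350, 355, 450 and 584) lay below the untreated pair (1415 and 976). X02412_at had a change of -1.07 (adjusted p = 0.13). M34134_s_at went the other way, with 357 and 862 untreated, 376, 1266, 1516, 1012 and 1200 with butyrate, and a change of 0.81 (adjusted p = 0.306). With aspirin its change was 0.70 (adjusted p = 0.653), and the drugs differed on it by 0.11 (adjusted p = 0.818). Against aspirin, M60666_s_at was lower by 1.13 ± 0.31 (adjusted p = 0.0425), and M15474cds_s_at had a change of -1.36 (adjusted p = 0.0536).

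These 3 falls were called under 8, 4 and 12 of 21 alternatives, in the order of their sizes (adjusted p up to 0.583 in each). With time as a factor 1 member in all was called lower with butyrate, and in the fit of the 2 and 24 h arrays alone 0. Each of the 3 Tpm1 falls also ended without either untreated array. Without the untreated 2 h array the changes were -2.07, -1.58 and -1.03, and without that of 24 h they were -1.19, -1.13 and -1.56. All 3 were also lost without the butyrate array of 6, 12 or 16 h, with changes of -1.51, -1.42 and -1.56 for M15474cds_s_at, -1.22, -1.21 and -1.30 for M60666_s_at, and -1.19, -1.19 and -1.28 for rc_AI144767_s_at. M15474cds_s_at and M60666_s_at were lost as well without the butyrate 24 h array, with changes of -1.71 and -1.39, and with their changes as they were without the aspirin array of 12, 16 or 24 h, M60666_s_at also without that of 2 or 6 h. The lower Tpm1 value against aspirin was called under 5 of 18 alternatives and ended without either array of 6, 12, 16 or 24 h, with changes of -0.89, -0.96, -1.15 and -1.27.

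**Figure D2:**
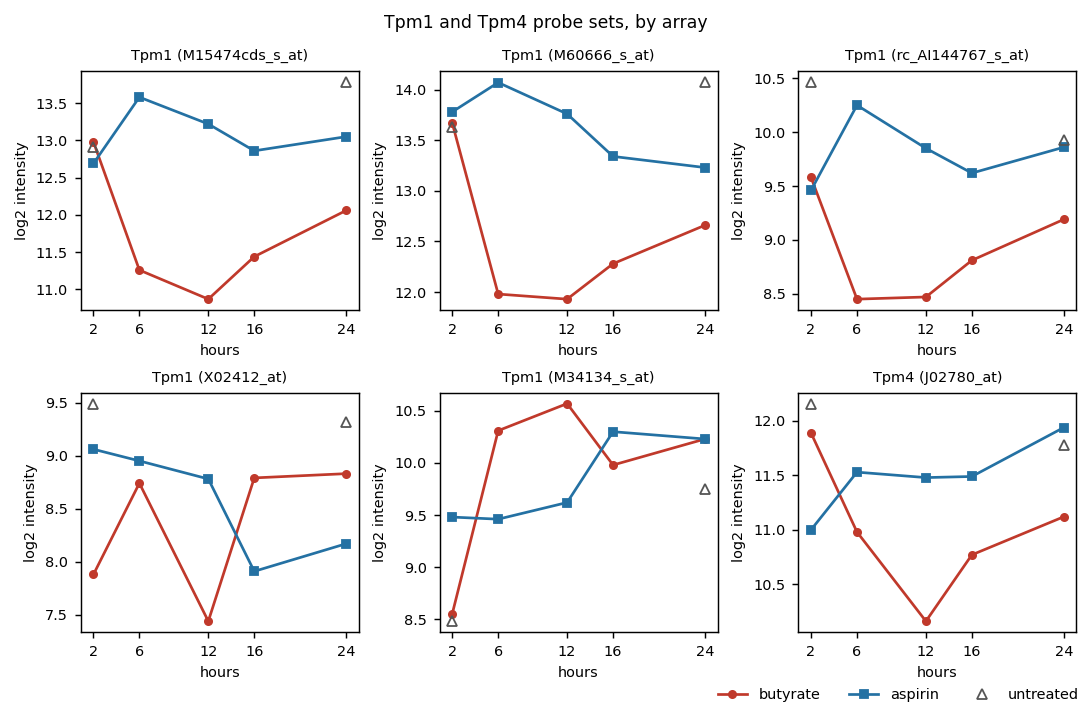
log2 intensity (vertical axis) of 5 Tpm1 probe sets and 1 Tpm4 probe set against hours (horizontal axis), 1 point per array: butyrate circles, aspirin squares, untreated triangles, with no error bars since each point is 1 array. On M15474cds_s_at, M60666_s_at and rc_AI144767_s_at the butyrate arrays from 6 h on lie under the aspirin and untreated arrays. On M34134_s_at they lie above the untreated arrays, but not above the aspirin arrays at 16 and 24 h.

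Of the other tropomyosins, Tpm4 on J02780_at read 4590 and 3506 untreated and 3795, 2015, 1142, 1745 and 2231 with butyrate. Its course had the lowest point at 12 h, as for Tpm1, and its change was -0.99 (adjusted p = 0.0866). Tpm3 on rc_AA859305_s_at was higher with butyrate than with aspirin by 0.58 ± 0.14 (adjusted p = 0.032), with 4886 to 7510 in butyrate arrays and 3453 to 4684 in aspirin arrays. Both untreated arrays (8677 and 5610) lay above all aspirin arrays. This call was made under 6 of 18 alternatives. It ended without either array of 6, 12, 16 or 24 h, with changes of 0.56, 0.68, 0.61 and 0.62. The other tested Tpm3 probe sets were not called between the drugs and did not all go the same way. Their changes were 0.17 on S82383_s_at (adjusted p = 0.0913), 0.05 on rc_AA818554_s_at, -0.21 on L24776_at and -0.19 on L24777_at. All of these but S82383_s_at had arrays at the floor with both drugs.

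The 5 members that rose with time in butyrate were Rhob, Itga7, Cnn1, Myl9 and Myl12b. Of these, Cnn1, Myl9 on S77900_g_at and Itga7 on X65036_at lay at the floor on all 7 arrays without butyrate, so they passed the removal of dim probe sets through the butyrate arrays alone. Their values there had to be higher, and their slopes and adjusted p-values are given as a description of the butyrate arrays. Cnn1, the calponin of smooth muscle, read 75.6 and 15.5 untreated, and 30.2 and 25.5 with butyrate at 2 and 6 h, all under the floor. It then read 303, 400 and 472 at 12, 16 and 24 h, while no aspirin array exceeded 44.0. Cnn1 rose with time in butyrate by 0.76 ± 0.13 per doubling of the hours (adjusted p = 0.0123). The slope was called under 16 of 17 alternatives and ended without the butyrate 24 h array, where it was 0.74.

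Myl9 encodes the regulatory light chain of smooth muscle and non-muscle myosin II. On S77900_g_at it read 71.2 and 36.9 untreated, 19.4, 217, 185, 308 and 515 with butyrate and at most 78.3 with aspirin, so that only the 4 butyrate arrays from 6 h on lay above the floor. Myl9 rose with time in butyrate by 0.61 ± 0.10 per doubling (adjusted p = 0.011). It was higher than with aspirin by 1.31 ± 0.35 (adjusted p = 0.041), a difference set by the floor in all 5 aspirin arrays and 1 butyrate array. S77900_g_at had to be higher with butyrate to pass the removal of dim probe sets, so that adjusted p is a description only. The slope was called under 15 of 17 alternatives and ended without the butyrate 2 h array, where it was 0.61. The difference from aspirin was called under 6 of 18 and ended without either array of 6, 12, 16 or 24 h, with changes of 1.32, 1.38, 1.20 and 1.01. The second Myl9 probe set, S77900_at, was likewise above the floor in 3 butyrate arrays (126, 136 and 388 at 6, 16 and 24 h) and in no other array.

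Myl12b and Myl12a are the other regulatory light chains of non-muscle myosin. In butyrate, Myl12b had a called rise with time, and Myl12a a called fall against the untreated arrays. Against those arrays Myl12b was not called, with changes of 0.37 on D14688_s_at (adjusted p = 0.244) and 0.23 on X52840_r_at (adjusted p = 0.59). The Myl12a slope on X54617mRNA_s_at was not called either (-0.11, adjusted p = 0.0981). Myl12b on D14688_s_at read 14405 and 16007 untreated and 13853, 17180, 19232, 24242 and 25984 with butyrate, each array above the one before it in hours. It rose with time by 0.25 ± 0.04 per doubling (adjusted p = 0.0103), and its aspirin arrays stayed between 13754 and 17437. Myl12a on X54617mRNA_s_at read 21475 and 20688 untreated and 17455, 15443, 13343, 13086 and 13844 with butyrate, all below the untreated pair and below the aspirin arrays, which read 18151 to 21238.

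Myl12a fell with butyrate by 0.53 ± 0.13 (adjusted p = 0.0178), or 1.45-fold, a call made under 15 of 21 alternatives (adjusted p 0.00189 to 0.522) and lost without either untreated array, with changes of -0.51 and -0.56. Against aspirin it was lower by 0.41 ± 0.08 (adjusted p = 0.0206), lost without either array of 6, 12, 16 or 24 h (changes -0.39, -0.40, -0.37 and -0.39). The Myl12b slope ended without the butyrate array of 2 or 24 h, with slopes of 0.32 and 0.24. The second Myl12b probe set, X52840_r_at, was higher with butyrate than with aspirin by 0.53 ± 0.15 (adjusted p = 0.0453), a call made under 3 of 18 alternatives (adjusted p 0.0336 to 0.336) and lost without either array of 6, 12, 16 or 24 h (changes 0.53, 0.57, 0.51 and 0.39). The second Myl12a probe set, X05566_i_at, had a change of -0.29 with butyrate (adjusted p = 0.24). Probe sets ending in s_at may match both genes, whose sequences are alike, so the split between Myl12a and Myl12b is uncertain.

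**Figure D3:**
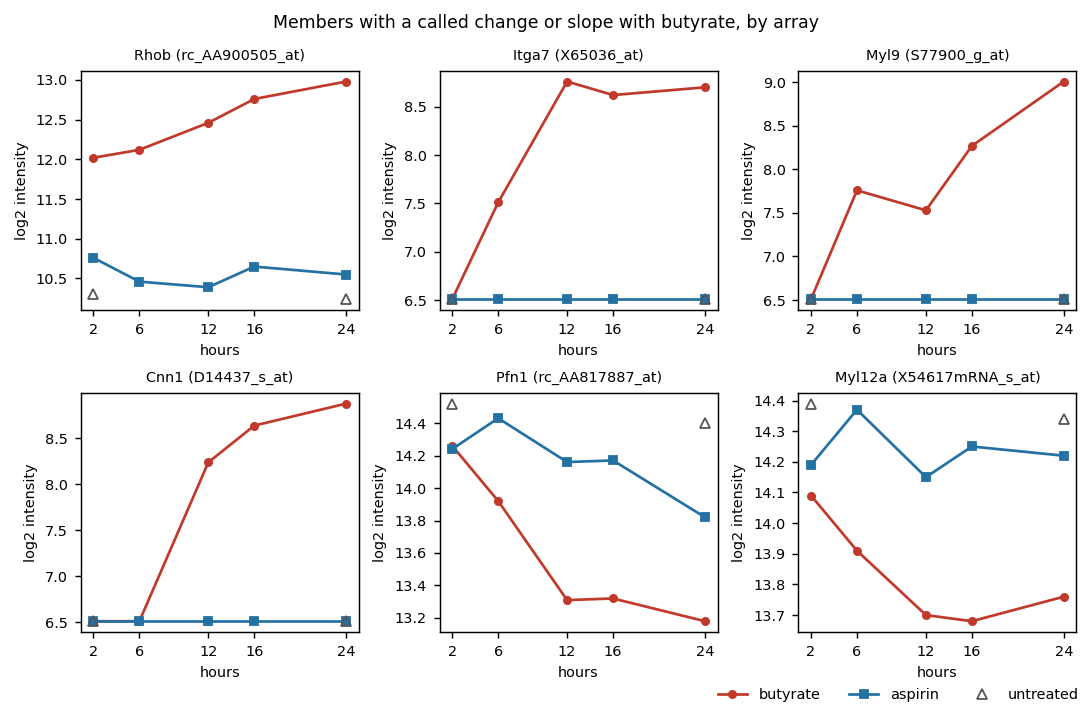
log2 intensity (vertical axis, each panel on its own scale) of 6 member probe sets against hours (horizontal axis), 1 point per array and no error bars: butyrate circles, aspirin squares, untreated triangles. Rhob is above all other arrays from 2 h on, Itga7, Myl9 and Cnn1 leave the floor of 6.51 only in butyrate arrays after 2 h, and for Pfn1 and Myl12a each butyrate array from 6 h on lies below the aspirin array of its hour.

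Of the myosin heavy chains, 2 muscle genes were called between drugs or over time. Myh3 (X04267_at), the embryonic muscle heavy chain, read 902, 866, 1081, 1185 and 996 with butyrate, but -99.3, 227, 180, 422 and 691 with aspirin, with no overlap. It was higher with butyrate by at least 1.97 ± 0.41 (adjusted p = 0.0225), and it rose with time in aspirin by 0.73 ± 0.14 per doubling (adjusted p = 0.0475). Untreated cells read 1105 and 512, and 4 of the 5 butyrate arrays lay between them. The other tested Myh3 probe set, K03468_s_at, was above the floor on 4 arrays. Its difference between the drugs was -0.09 (adjusted p = 0.764) and its aspirin slope 0.05 (adjusted p = 0.885). The Myh3 probe sets K03467_s_at, L00370cds_s_at and M12098_s_at were at the floor on all arrays and were not tested. Myh1, a skeletal heavy chain, fell with time in aspirin by 0.44 ± 0.07 per doubling (adjusted p = 0.0269), from 3181 at 2 h to 962 at 24 h, and read 1030 and 972 untreated.

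These calls rested on few arrays. The Myh3 difference was made under 9 of 18 alternatives and ended without either array of 6, 12 or 16 h, with changes of 1.98, 1.81 and 2.09. Its aspirin slope was made under 7 of 17 and ended without the aspirin array of 2, 16 or 24 h (slopes 0.82, 0.71 and 0.60) and without any 1 butyrate array, where the slope was still 0.73. The Myh1 slope was made under 10 of 17 and ended without the aspirin array of 2, 16 or 24 h (slopes -0.47, -0.43 and -0.38) and without the butyrate array of 6, 12 or 16 h, where it was still -0.44. Probe sets of the heavy chains can share signal with other members of that family. Of the muscle markers, Tnni2, Tnnc2, Actc1, Myog, Myod1 and Atp2a1 were at the floor on all 12 arrays, Tnni1, Tnni3 and Pygm were above it on all 12, and the intensities of the 15 muscle markers summed to 1853.1 to 2167.4 untreated, 1413.4 to 2983.3 with butyrate and 1204.9 to 1871.7 with aspirin.

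The unconventional myosins Myo1e and Myo1c, single-headed motors that link filaments to membranes, were both higher with butyrate than with aspirin. Myo1e read 1043, 1686, 2325, 1526 and 985 against 635, 737, 814, 699 and 667, a difference of 1.02 ± 0.18 (adjusted p = 0.0144). Myo1c read 256, 141, 237, 193 and 236 against 77.2, 90.8, 117, 91.9 and 179, a difference of at least 0.92 ± 0.18 (adjusted p = 0.0205). For Myo1c the aspirin array of 24 h lay inside the butyrate range, yet each hour had the higher value with butyrate. The calls were made under 11 and 8 of 18 alternatives. Both ended without either array of 6, 12 or 16 h. The changes were then 0.98, 0.90 and 0.997 for Myo1e and 0.996, 0.90 and 0.89 for Myo1c. Untreated cells read 1111 and 865 for Myo1e and 990 and 196 for Myo1c. Against them the butyrate changes were 0.55 (Myo1e, adjusted p = 0.264) and -1.08 (Myo1c, adjusted p = 0.166). With aspirin Myo1e had a change of -0.47 (adjusted p = 0.631) and Myo1c was at least 2.01 lower (adjusted p = 0.256).

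Actn4, the alpha-actinin of cells that are not muscle, separated the drugs as cleanly as Cttn. It read 3251, 3827, 4715, 4187 and 3427 with butyrate and 1771, 1486, 1788, 1556 and 1395 with aspirin, with no overlap. The difference was 1.27 ± 0.11 (adjusted p = 0.00478), or 2.42-fold, and it was called under all 18 alternatives. The untreated arrays read 5856 at 2 h, above every treated array, and 1614 at 24 h, among the aspirin arrays. Pdlim5, which binds alpha-actinin, read 4027 and 692 untreated on U48247_g_at, 485 to 990 with butyrate and 336 to 563 with aspirin. Its change with aspirin was -1.94 (adjusted p = 0.256) and its difference between the drugs 0.60 (adjusted p = 0.0854). The second Pdlim5 probe set, U48247_at, was at least 1.29 lower with aspirin (adjusted p = 0.523). On it the drugs differed by 0.04 (adjusted p = 0.935).

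Ezr and Msn encode ezrin and moesin, which tie filaments to the membrane, ezrin above all in epithelial microvilli. Ezr read 8980, 10081, 8699, 8471 and 8632 with butyrate and 5759, 5299, 5120, 5464 and 6127 with aspirin. The groups were fully apart, the untreated 2 h array (10147) lay above both, and that of 24 h (5349) lay among the aspirin arrays. Ezr was higher with butyrate than with aspirin by 0.69 ± 0.08 (adjusted p = 0.00703), called under all 18 alternatives. Msn on AF004811_at read 2801 and 335 untreated, 885, 409, 215, 542 and 968 with butyrate and 137, 208, 349, 329 and 770 with aspirin, and was called in no comparison.

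Integrin alpha chains set which matrix protein an integrin binds. Itga7, the laminin-binding chain known from muscle, was at the floor on X65036_at in both untreated arrays (-244 and -150), in the butyrate 2 h array (-145) and in all 5 aspirin arrays (-200 to -58.0). From 6 h on it read 183, 434, 393 and 415 with butyrate. It rose with time in butyrate by 0.68 ± 0.08 per doubling (adjusted p = 0.00404). As for Cnn1 and Myl9, this probe set passed the removal of dim probe sets through the butyrate arrays alone. It was also the 1 member called for a difference between the slopes (0.68, adjusted p = 0.0388, beside 1.73% of all probe sets tested), but with all aspirin arrays at the floor that difference restates the butyrate slope.

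On the second Itga7 probe set, X65036_g_at, the butyrate arrays read 270, 374, 434, 384 and 472, all above the untreated pair (207 and 235) and above the aspirin arrays (139 to 264). Both probe sets were higher with butyrate than with aspirin, by 0.92 ± 0.19 on X65036_g_at (adjusted p = 0.0208) and by 1.51 ± 0.37 on X65036_at (adjusted p = 0.0336). The size and the spread of the second were set by the floor in all 5 aspirin arrays and 1 butyrate array. X65036_at had to be higher with butyrate to pass the removal of dim probe sets, so its adjusted p-values are a description only. Against the untreated arrays the changes were 0.79 (adjusted p = 0.136) and 1.51 (adjusted p = 0.0559). The slope was called under 15 of 17 alternatives and ended without the butyrate 2 h array, where it was 0.60. Both differences from aspirin ended without either array of 6, 12, 16 or 24 h, with changes of 0.94, 0.81, 1.02 and 0.92 on X65036_g_at and 1.64, 1.33, 1.36 and 1.34 on X65036_at.

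Itgae, the alpha chain of an E-cadherin receptor, was the integrin lower with butyrate. On AF020046_s_at it read 147, 169, 111, 108 and 96.2 with butyrate and 334, 359, 327, 239 and 166 with aspirin, and 180 and 225 untreated. The butyrate arrays lay below the untreated pair, and only the aspirin 24 h array reached into their range. Itgae was lower with butyrate than with aspirin by 1.15 ± 0.16 (adjusted p = 0.00874), called under 16 of 18 alternatives and lost without the butyrate 16 h array, where the change was again -1.15. The other 2 Itgae probe sets were at the floor on most arrays. Itga1, a collagen-binding chain, had no call, with changes of -0.11 (butyrate) and -0.51 (aspirin).

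Integrin beta chains join the alpha chains to the cytoskeleton. Itgb4, the beta chain of hemidesmosomes, read 1323, 1264, 1406, 1268 and 1745 with butyrate and 902, 648, 649, 613 and 1038 with aspirin, with no overlap. It was higher with butyrate than with aspirin by 0.89 ± 0.14 (adjusted p = 0.011), called under 14 of 18 alternatives. It was lost without either array of 12 or 16 h, with changes of 0.83 and 0.85. Untreated cells read 1398 at 2 h, among the butyrate arrays, and 425 at 24 h, below every treated array.

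Itgb7, which pairs with Itgae and Itga4, moved most with time in aspirin. On AF003598_at it read 169, 247, 642, 1054 and 1439 with aspirin, each array above the one before it, and 532, 698, 696, 890 and 1206 with butyrate. Untreated cells read 365 and 498, which the aspirin arrays crossed from below to above. Itgb7 rose with time in aspirin by 0.91 ± 0.11 per doubling (adjusted p = 0.02), called under 13 of 17 alternatives. It ended without the aspirin array of 16 or 24 h (slopes 0.88 and 0.86) and without the butyrate array of 6 or 16 h, where the slope was still 0.91. The second probe set, S44606_s_at, had a slope of 0.92 (adjusted p = 0.108), and the slope in butyrate was 0.29 (adjusted p = 0.17). The slopes of the drugs were not called different (-0.62, 95% interval -0.997 to -0.25, adjusted p = 0.1).

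Itgb1, the common partner of most alpha chains, was called in no comparison. It read 8356 and 6748 untreated, 5400 to 7903 with butyrate and 4465 to 7185 with aspirin, and the drugs differed by 0.04 (adjusted p = 0.887). Itgb3 was higher with butyrate than with aspirin by at least 0.69 ± 0.15 (adjusted p = 0.0228), with 107 to 199 against 4 aspirin arrays at the floor and 1 of 99.0. That call was made under 6 of 18 alternatives and ended without either array of 6, 12, 16 or 24 h, with changes of 0.64, 0.58, 0.72 and 0.70.

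With butyrate, more members lay at least 2-fold from the untreated mean at 24 h than at 2 h, as over all probe sets. Above it lay 3 probe sets at 2 h (3.80%, beside 6.57% of all) and 11 at 24 h (13.9%, beside 15.8%). Below it lay 5 at 2 h (6.33%, beside 4.69%), 11 at 12 h (13.9%, beside 7.49%) and 9 at 24 h (11.4%, beside 9.95%). Those above the untreated mean at 24 h included Cnn1, both Myl9 probe sets and Itga7 on X65036_at. These passed the removal of dim probe sets through the butyrate arrays alone. Slopes with butyrate were called for 7 members, 5 rising and 2 falling (8.86%, beside 8.99% of all), and slopes with aspirin for 3 (3.80%, beside 1.65%). The seventh butyrate slope, of Tpm4 on rc_AI105374_at, rested on the 2 h array alone, since all later arrays were at the floor, and was 0 without it. The count of butyrate slopes was 1 without the butyrate 2 h array (1.27%, beside 1.32% of all) and 2 without that of 24 h (2.53%, beside 4.20%). The count of aspirin slopes was 0 without the aspirin array of 16 or 24 h or the butyrate array of 6 or 16 h (beside 0.0981 to 0.441% of all), 1 without the butyrate 12 h array (1.27%, beside 0.899%) and 7 without the aspirin 6 h array (8.86%, beside 3.78%).

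Of the 23 probe sets called between the drugs, 17 (21.5%, beside 15.6% of all) were higher and 6 (7.59%, beside 9.61%) lower with butyrate. Itga7 on X65036_at and Myl9 on S77900_g_at, among the 17, passed the removal of dim probe sets through the butyrate arrays alone. They therefore had to be higher there. Those higher were, by role, 2 assembly proteins, 1 cross-linker, 1 tropomyosin, 3 conventional and 2 unconventional myosin chains, 3 GTPases, 1 membrane linker and 4 of integrins. When each array was centred on its own median, the split turned to 9 higher and 19 lower, as the median difference of all probe sets moved from 0.10 to -0.21. Cttn, Actn4, Rhob and Ezr were the 4 called under all 18 alternatives. The count fell to 4 to 10 without either array of 6, 12, 16 or 24 h (5.06 to 12.7%, beside 3.94 to 9.92% of all), and was 27 without either array of 2 h (34.2%, beside 26.8 to 26.9%).

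**Figure D4:**
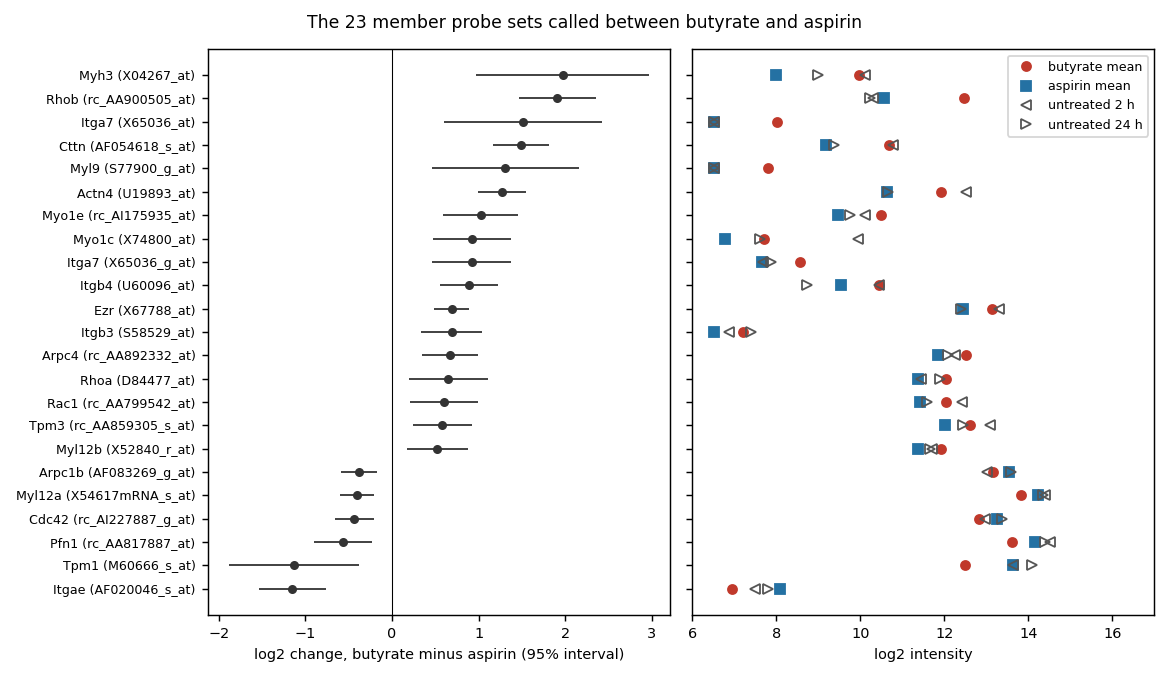
Left: log2 change, butyrate minus aspirin, of the 23 called member probe sets with the 95% interval of the fit (5 against 5 arrays, hour as a block). Right: log2 intensity of the same probe sets as butyrate mean (circles), aspirin mean (squares) and the untreated 2 h and 24 h arrays (left- and right-pointing triangles). For Actn4, Cttn, Ezr and Itgb4 the untreated 2 h array lies near or above the butyrate mean and the 24 h array near or below the aspirin mean.

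The untreated arrays at 2 and 24 h stood apart for many of these members, which bears on every comparison with them. Of the 79 tested members, 15 (19%) differed at least 2-fold between them, 11 of them lower at 24 h, beside 16.5% of all the probe sets tested. The differences, 24 h minus 2 h, were -3.35 and -2.54 for Pdlim5, -3.06 for Msn, -2.34 for Myo1c, -1.86 for Actn4, -1.72 for Itgb4 and -1.41 for Cttn. Of the 17 members higher with butyrate than with aspirin, the untreated 2 h array lay nearer the butyrate mean in 11 and the 24 h array in 6. Over all probe sets tested and higher with butyrate, these were 343 and 99 of 952. Hour, culture and array cannot be told apart in this pair.

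Without the untreated 2 h array, butyrate gave 5 calls among the members (6.33%, beside 5.84% of all probe sets tested), of which Rhob was the 1 shared with the 7. Actn4 (1.25), Itgb4 (1.71) and Ezr (0.74) were then called higher and Myo5b (-0.53 as a bound, with all 5 butyrate arrays at the floor) lower. Without the untreated 24 h array it gave 6 (7.59%, beside 7.55%), again with Rhob alone shared, and Itgav, Tpm3, Myo1c and both Pdlim5 probe sets were called lower. Aspirin then gave 9 calls (11.4%, beside 5.0%), all lower, in place of 0, as the calls over all probe sets rose from 9 to 306. They were both probe sets of Pdlim5 (-3.21, and -2.97 as a bound), Myo1c (-3.18 as a bound), Actn4 (-1.88), Cald1 (-1.63), Ezr (-0.87), Itgav (-0.73 as a bound) and 2 of Tpm3 (-1.07 and -0.63). A bound is the smallest size of a change whose treated group had arrays at the floor. The count with butyrate was 12 without the butyrate 2 h array (15.2%, beside 19.1% of all) and 2 without that of 12 or of 16 h (2.53%, beside 5.62 and 5.07%). It was 4 (5.06%) without the butyrate array of 6 or 24 h or the aspirin array of 12, 16 or 24 h, beside 6.54 to 10.9% of all.

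**Figure D5:**
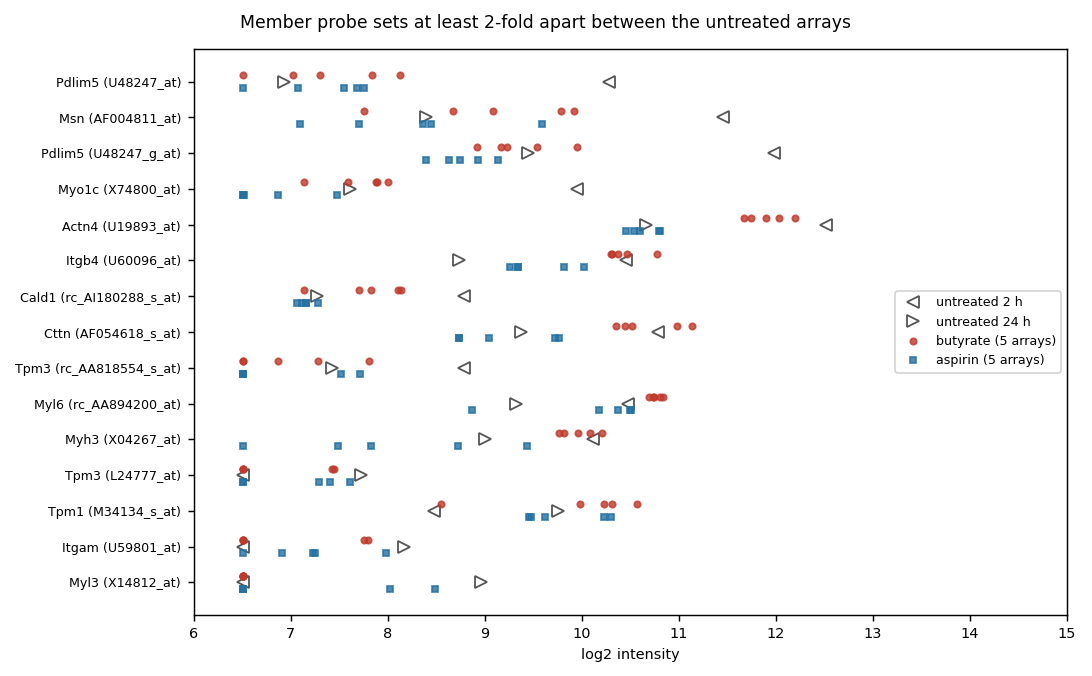
log2 intensity (horizontal axis) of the 15 member probe sets at least 2-fold apart between the untreated arrays, 1 point per array: untreated 2 h and 24 h as left- and right-pointing triangles, butyrate circles, aspirin squares. For the first 11 rows, from Pdlim5 down to Myh3, the untreated 2 h array lies to the right of that of 24 h.

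With aspirin, the 8 members of largest change that lay on 1 side of the untreated pair on every array were all lower and none was called. Myo1c was at least 2.01 lower (adjusted p = 0.256), Pdlim5 on U48247_g_at had a change of -1.94 (adjusted p = 0.256) and Myh6 was at least 0.97 lower (adjusted p = 0.47). Tpm1 on X02412_at (-0.83), Tpm3 on rc_AA859305_s_at (-0.75), Itgb3 (at least 0.61 lower), Myh8 (-0.51) and Itga1 (-0.51) followed. All aspirin arrays lay below the untreated pair for 12 members (15.2%, beside 7.78% of all) and above it for 2 (2.53%, beside 3.81%). With butyrate the arrays lay below it for 9 (11.4%, beside 13.2%) and above it for 8 (10.1%, beside 14.7%). Of these, uncalled and on 1 side on every array, Itgb7 had changes of 0.98 and 0.86 on its 2 probe sets, Myh1 of 0.88, Myl6 of 0.86, Myh6 of -0.75 and Itgae of -0.70. Between the drugs, Myl6 differed by 0.68, Myl12b on D14688_s_at by 0.35 and Tpm3 on S82383_s_at by 0.17 without a call, each higher with butyrate. The median change of the members with aspirin was -0.19, beside -0.04 over all probe sets tested.

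Further genes of the pathway, from lists of their names, were read on the brightest tested probe set of each. Of 23 genes of focal adhesions and integrin signalling, 3 rose with butyrate (13%, beside 7.78% of all probe sets tested) and 1 fell (4.35%, beside 3.92%). Icam1, a ligand of leukocyte integrins, rose by 1.75 ± 0.36, Fblim1 by 1.31 ± 0.35 and the tetraspanin Cd81 by 1.03 ± 0.20, and the kinase Fyn fell by 1.42 ± 0.40. Among 32 other actin-binding proteins 3 rose, Csrp2 (2.93 ± 0.60), Add2 (1.89 ± 0.37) and Csrp1 (1.12 ± 0.27), or 9.38% (beside 7.78% of all), and 0 fell (beside 3.92%). The median change of the 32 was 0.37. Against aspirin 13 of them were higher (40.6%, beside 15.6% of all) and 1 lower (3.12%, beside 9.61%). Of the 23 focal adhesion and integrin signalling genes, 7 were higher (30.4%) and 3 lower (13%) with butyrate than with aspirin. Of 12 integrin ligands, 1 in each direction was called (8.33%, beside 7.78% of all rising and 3.92% falling): the laminin chain Lamb2 rose by 1.22 ± 0.36 and fibronectin (Fn1) fell by 0.90 ± 0.23. Against aspirin 1 ligand was higher and 1 lower with butyrate (8.33% each). None of these genes was called with aspirin against the untreated arrays.

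The pattern of Rhob over the 12 arrays was compared with 5010 other tested probe sets naming 1 gene. The nearest were Plcd1 (Pearson r = 0.983), Prkch (0.978) and Sord (0.976), and among the members Itga7 on X65036_at (0.886) and Myl9 on S77900_g_at (0.875). Both of these member probe sets passed the removal of dim probe sets through the butyrate arrays alone. They therefore had to be higher there, as Rhob was. Itga7 on X65036_g_at, above the floor on all 12 arrays, followed (0.845). Of the members, Myl12a on X54617mRNA_s_at ran most against Rhob (-0.938). For Actb the nearest were Usf2 (0.915), Tacr2 (0.893) and Nup62 (0.887), and among the members Myl12a (0.821), Tpm4 (0.81) and Tpm1 (0.789). These correlations are descriptions over arrays that fall into treatment groups.

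Of the fibroblast and smooth muscle markers, Col1a1, Col1a2, Pdgfra and Vim were above the floor on all arrays and Pdgfrb at it, and the 10 on the array summed to 4781.3 to 5750.7 untreated, 3623.2 to 4493.1 with butyrate and 5194.6 to 5532.9 with aspirin. The lower sums with butyrate stand beside the higher Cnn1, Myl9 and Itga7 there, and their part in those results was not tested. Blood and immune markers (10 genes, with Cd3d, Cd8a and Lyz2 at the floor and Cd14 above it on all arrays) summed to 2409.9 to 3563.5, 1578.9 to 2021.7 and 1993.7 to 5360.1, in the same order. The 4 endothelial markers (Vwf at the floor and Flt1 above it on all arrays) summed to 790.8 to 905.4, 457.4 to 573.9 and 471.8 to 695.6.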

How the data were processed

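The deposited values of 12 arrays were used as intensity, one column per array and 8799 probe sets, 59 of them controls. Of the deposited intensity values, 21.6 to 25.6% were negative on each array, and after removal of the outer 2% every array's mean was 1000, so the arrays were taken as already scaled. The software and background step are not stated in the labels. No 2 arrays shared more than 0.114% identical values.

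Values under 90.91, the absolute value of the 10th percentile, were raised to it and log2 was taken (6.51 at the floor). Dim probe sets, whose log2 values averaged less than the 30th percentile of such averages (6.54), were dropped, which left 6118. The floor makes changes of dim probe sets too small, and the number of arrays limits the precision. limma 3.58.1 in R 4.3.3 (lmFit, eBayes with a variance trend) compared each drug with untreated cells on 12 arrays (9 residual degrees of freedom), and the drugs on the 10 treated arrays with hour as a block (4 degrees of freedom). Slopes over log2 hours came from those 10 arrays with 6 degrees of freedom. The Benjamini-Hochberg adjustment ran over all probe sets tested, with a threshold of 0.05. The fits were also run on simulated data with independent noise on each array. Such data cannot show how calls behave where the hours of a treatment stand as its replicates.

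Genes were named by the platform annotation; 104 of 106 member probe sets matched a RefSeq gene number and 0 symbols had changed. Named were all called members, the 8 uncalled members of largest change on 1 side on every array in each comparison, the brightest of each role and a short list of single genes. The members, roles and pathway lists were chosen with earlier results of these data known. 1 of the pathway lists is not reported here. Alternatives were other floors, quantile normalization, median centring, no filter, no variance trend, other time models and leaving out each array.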

Additional observations from a re-analysis of the deposited data

Results flagged for a closer look

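On the log2 scale 4 of 75 groups of 5 arrays held a lone array past the critical gap, and chance gives about 1 in 20. Myl6 on rc_AA894200_at was low in the aspirin 24 h array, at a log2 intensity of 8.87 beside 10.18 to 10.51 in the other aspirin arrays, a gap of 0.796 of the group's range against a critical 0.71. Itgb3 in aspirin was above the floor at 16 h alone (6.63 beside 6.51, a gap of 1). Tpm4 on rc_AI105374_at was above the floor at 2 h alone, both with butyrate (7.63 beside 6.51, a gap of 1) and with aspirin (7 beside 6.51, a gap of 1). In these 3 groups a gap of 1 follows from the other 4 values having been raised to the floor. On the intensities before the floor the gaps were 0.35, 0.251 and 0.263, under the critical 0.71, so these arrays did not stand apart. The slope of Itga7 on X65036_at was higher in butyrate than in aspirin by 0.6751 per doubling of the hours (adjusted p = 0.0388 in limma), with all aspirin arrays at the floor, so that the difference restates the butyrate slope.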

How the results depend on the processing

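The number of member probe sets called with butyrate (7, beside 716 of all 6118) was 3 with the floor raised to 2 times its value, after quantile normalization, without the filter or without the variance trend (beside 322, 699, 358 and 665 of all). At the higher floor the filter percentile lay on the floor and removed nothing, so that setting tested all 8740 probe sets, as did that without the filter. The number was 2 with time as a factor (beside 317), 0 on the 2 and 24 h arrays with time as a block, where 0 of all probe sets were called, 13 with treated arrays of 12, 16 and 24 h only (beside 1284), and 2 to 12 without 1 array (beside 310 to 1166). With aspirin it was 0 to 9 without 1 array (beside 1 to 306) and 0 otherwise. Between the drugs (23, beside 1540) it was 7 with the higher floor (beside 683), 9 without the filter (beside 778), 13 on the late arrays (beside 1049) and 4 to 27 without 1 array (beside 241 to 1645). The butyrate slopes (7, beside 550) numbered 4 with the higher floor (beside 319) and 1 to 7 without 1 array (beside 81 to 541), and the aspirin slopes (3, beside 1.65% of all) 1 with the higher floor (beside 53), 5 after quantile normalization (beside 127), 6 after median centring (beside 258) and 0 to 7 without 1 array (beside 6 to 231). Median changes with butyrate (-0.05) were -0.12 at the lower floor and -0.24 after median centring. Those with aspirin (-0.19) were -0.28 at the lower floor, 0 at the higher floor and without the filter, -0.13 after quantile normalization, -0.069 after median centring, -0.22 on the 2 and 24 h arrays and -0.212 to -0.075 without 1 array. Those between the drugs (0.13) were 0 at the higher floor and without the filter, 0.034 after quantile normalization, -0.18 after median centring and 0.087 to 0.237 without 1 array. Median centring moved the median of all probe sets to -0.19 (butyrate), 0.08 (aspirin) and -0.21 (between the drugs).

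Over 96 named results and 1874 refits, 1492 kept direction and call, 323 lost the call, 16 gained it and 43 turned sign, all 43 without a call on either side. With butyrate, Cdc42 on rc_AI227887_at turned to -0.12 at the lower floor, -0.073 after quantile normalization, -0.13 after median centring and -0.14 on the 2 and 24 h arrays. Cdc42 on rc_AA925473_g_at turned to -0.18 after median centring, -0.056 with time as a factor and -0.045 on the 2 and 24 h arrays, that on rc_AA925473_at to 0.021 on the 2 and 24 h arrays and 0.064 on the late arrays, and Rac1 to -0.16 after median centring. With aspirin, Cdc42 turned to -0.020 (rc_AA925473_at) and 0.085 (rc_AI227887_at) on the 2 and 24 h arrays, and Itgb3 to 0 at the higher floor. Between the drugs, quantile normalization gave 0.070 for Actb, 0.19 for Actg1 and -0.0018 for Cdc42 on rc_AI227887_at, and median centring -0.14 for Tpm3 on S82383_s_at, -0.27 for Itgb1 and -0.063 for Cdc42 on rc_AI227887_at.

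Without 1 array, the butyrate change ran from -0.39 to 0.44 for Rac1, -0.32 to 0.27, -0.072 to 0.088 and -0.078 to 0.19 for Cdc42 on rc_AA925473_at, rc_AA925473_g_at and rc_AI227887_at, -0.61 to 1.25 for Actn4, -0.24 to 0.028 for Itga1 and -0.18 to 0.74 for Ezr. The aspirin change ran from -0.19 to 0.40 and -0.13 to 0.28 for Cdc42 on rc_AA925473_at and rc_AI227887_g_at, and -0.87 to 0.051 for Ezr. The difference between the drugs ran from -0.10 to 0.15 for Itgb1 and -0.10 to 0.018 for Actg1. The cause of these changes was not tested; signal near the floor limits Itga7, Myl9, Cnn1, Itgb3 and Myo1c. The labels give no replicate numbers; the drugs were paired by hour, and without hour as a block 26 members were called between them, beside 1535 of all.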
